A study of Mus musculus with 4 samples.

Results

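At 3656 places in the mouse liver genome, a single island of histone H4 acetylated at lysine 16 (H4K16ac) was present in both a Sirt1 mutant (MT) and a wild-type (WT) mouse, and the MT island was the longer by at least 1000 bp. An island is a stretch of the genome in which reads from the chromatin immunoprecipitation (ChIP) exceeded those of the input, which is chromatin sequenced without immunoprecipitation. Islands of both genotypes were merged wherever they shared 1 bp or more. Of the 36418 merged regions, 14719 held islands of both lists. Regions with exactly 1 island of each list numbered 12139, and 11900 of these spanned less than 10000 bp. The 3656 regions were 30.7% of the 11900 (95% Wilson interval 29.9 to 31.6%). Keeping only islands enriched at least 2 times over input gave 1636 such regions, with an overlap of 50% of each island 1754, with a difference of at least 2000 bp 1704 and with a span below 5000 bp 2358. The regions were selected on the lengths of their islands, so these lengths, and the read numbers that go with length, are descriptions and were given no test.

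Livers came from 1 MT and 1 WT mouse at 3 months of age, killed between 9 AM and 11 AM, and each liver gave 1 ChIP library and 1 input library. The MT mouse carried the SIRT1 KO, which the study describes as a targeted deletion of exons, in mice bred by crossing heterozygous parents. Both mice were on a mixed 129/FVB/Black Swiss background. The methods name males for this part of the study, and mice of this genotype are described as rarely surviving to adulthood. Livers from 2 pairs of mice went into the study's ChIP-Seq, and 1 pair was analysed here. Whole liver was used, so hepatocytes and the other cells of the organ were pooled. With 1 mouse per genotype, a difference by genotype, a difference between 2 mice and a difference between 2 libraries cannot be told apart. Intervals given here cover counting error only.

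SIRT1 is an NAD+-dependent deacetylase, and acetylated H4K16 is among its best known histone substrates. Acetylation at this lysine weakens contacts between neighbouring nucleosomes, loosens the packing of chromatin and is common at transcribed genes and their promoters. The ChIP libraries were made to ask whether loss of Sirt1 goes with more H4K16ac in the liver. An island can differ between genotypes in length, in the density of reads inside it, or in both, and the islands considered here differ in length by their selection. No island was assigned to a gene, since no annotation of the genome build of the lists (mm8) was used here.

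The lists held 28377 islands over 87.5 Mb in MT and 26227 islands over 69.8 Mb in WT. The selected regions made up 12.9% of the MT islands and 18.5% of the MT covered length, and 13.9% and 11.8% in WT. The MT libraries were somewhat deeper. Input density was set equal over the regions with islands of both lists, which put the depth of MT relative to WT at 1.09 for input and 1.05 for ChIP. MT values called scaled below were divided by these factors. The part of depth in the longer MT islands was not tested.

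The opposite case, a WT island longer by at least 1000 bp, was found at 1829 regions, which is 15.4% of the 11900 (14.73 to 16.03%). The islands of the remaining 6415 regions differed by less than 1000 bp. Regions longer in MT were thus 1.999 times as many as regions longer in WT (95% exact interval 1.889 to 2.115). Counting any difference in length, the MT island was longer at 6557 regions, the WT island at 4089, and both were of equal length at 1254. The selected regions added 7.99 Mb to MT and the opposite regions took away 3.37 Mb, a net 4.61 Mb that came to 26.0% of the 17.7 Mb by which the lists differ. The rest of that difference lay in islands of 1 list only, in regions with several islands, in longer regions and in the smaller differences.

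**Figure D1:**
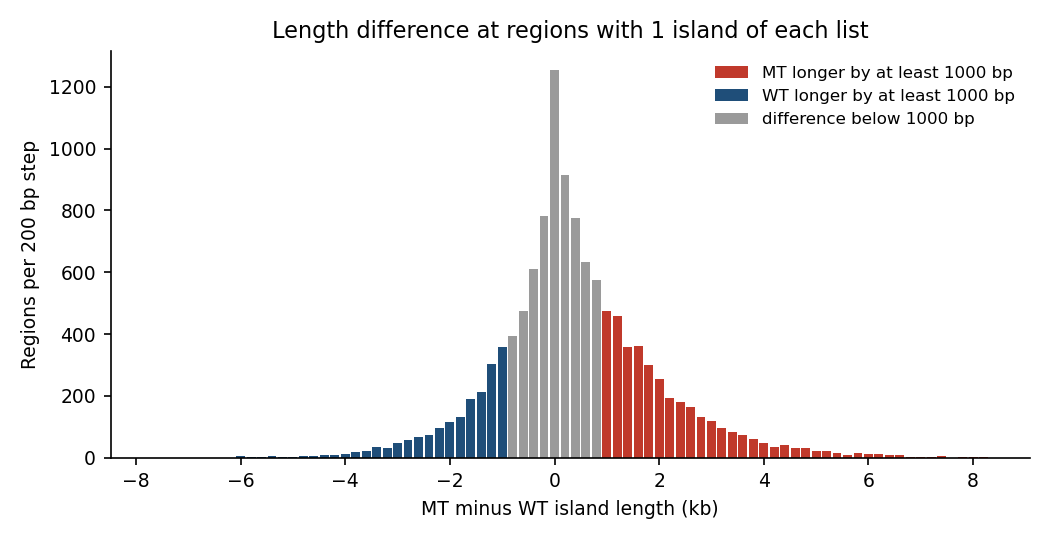
Number of regions (y axis) in each 200 bp step of the MT minus WT island length in kb (x axis), over the 11900 regions with 1 island of each list. Red bars are the 3656 regions longer in MT by at least 1000 bp and blue bars the 1829 longer in WT, and the red tail holds more regions than the blue tail at every step from 1000 to 7400 bp.

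The excess of MT over WT grew with the size of the difference. At a difference of 1000 to 1400 bp, 1290 regions were longer in MT and 872 in WT, at a ratio of 1.48 (1.36 to 1.61). At 1600 to 2200 bp the ratio was 2.09, and at 2400 to 3800 bp it was 2.59. At 4000 bp or more, 340 regions were longer in MT and 73 in WT, at a ratio of 4.66 (3.61 to 6.08). The steps next to the threshold were continuous with it: 474 regions were longer in MT by exactly 1000 bp and 575 by 800 bp, with 357 and 394 longer in WT by the same amounts.

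The length of the MT island in the selected regions had a median of 4000 bp, with the middle 50% between 3200 and 5400 bp and a range of 1200 to 9800 bp. The WT island had a median of 2000 bp, between 1400 and 2800 bp in the middle 50%. The difference had a median of 1800 bp and reached 8200 bp, and 51.5% of the MT islands were at least 2 times as long as their WT partner. The median MT island held 127 ChIP and 59 input reads, the median WT island 64 and 26. These are small numbers, so single regions are known less well than their sums. The authors' fold, which is ChIP over input reads after scaling for library size, had a median of 1.99 in MT and 2.19 in WT.

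The WT island mostly lay inside the MT island. In 2920 regions, or 79.9%, the MT island contained the WT island wholly. MT reached past WT at both ends in 1785 regions (48.8%), at 1 end with the other boundary identical in 1135 (31.0%), and at 1 end with the other falling short of the WT boundary in 736 (20.1%). One end therefore carried all of the added length in 51.2% of the regions (49.6 to 52.8%), at the lower coordinate in 959 and at the higher in 912. Where both ends were extended, the median extension was 400 bp at the shorter and 1600 bp at the longer side, and each end gained at least 1000 bp in only 396 of these regions. Summed over the ends that MT extended, it gained 4.26 Mb toward lower and 4.14 Mb toward higher coordinates, before the ends that fell short are taken off. The added length thus lay mostly to 1 side of the WT island, with no preference along the chromosome visible in these sums. Of the regions longer in WT, 40.02% were extended at both ends, 33.8% at 1 end with the other identical and 26.2% at 1 end with the other falling short. An island chosen as the longer of an overlapping pair is likely to contain the shorter, so containment follows in part from the rule.

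**Figure D2:**
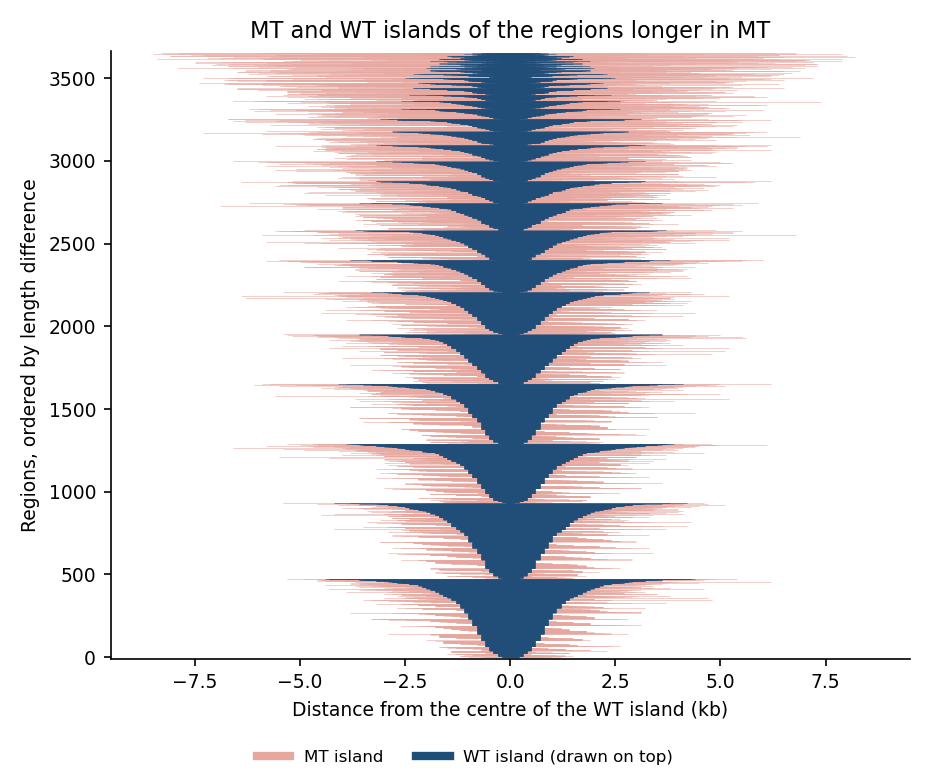
Each of the 3656 rows is 1 region, ordered upward by its length difference, with distance from the centre of the WT island in kb on the x axis. The pale MT islands reach past the dark WT islands on both sides, with 4.26 Mb to the left and 4.14 Mb to the right in sum.

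The 5 regions with the largest difference show how a short WT island can lie inside a broad MT island. At chr11:117652601-117661600 the MT island was 9000 bp long with 386 ChIP and 143 input reads. The WT island inside it, at 117658001 to 117658800, was 800 bp long with 34 ChIP and 12 input reads. Enrichment was nearly the same in both, with an authors' fold of 2.56 for the MT and 2.58 for the WT island. The ChIP density was 41.0 scaled reads per kb in MT and 42.5 in WT. At chr5:104235601-104245000 an MT island of 9400 bp held 256 ChIP and 118 input reads and a WT island of 1200 bp held 39 and 13. Here the MT density of 26.0 scaled ChIP reads per kb stood against 32.5 for WT, a ratio of 0.801 whose interval of 0.570 to 1.15 includes 1.

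At chr19:12528201-12537200 an MT island of 9000 bp held 263 ChIP reads and a WT island of 1000 bp held 34, with folds of 1.95 and 1.82. At chr12:76551201-76561000 the lengths were 9800 and 1800 bp, the ChIP reads 229 and 40 and the folds 1.67 and 1.73. Neither of these pairs differed in ChIP density beyond counting error. The fifth, chr4:128489001-128498200, did: its 9200 bp MT island held 348 ChIP reads, or 36.1 scaled per kb, and its 1400 bp WT island held 83, or 59.3 per kb. The ratio of densities was 0.610 (0.479 to 0.784), so the longer MT island there was the less dense.

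Among the 5 regions with the most MT ChIP reads, the islands were long in both genotypes and the added length was mostly a smaller part of the MT island. At chr10:74953401-74962200 the MT island of 8800 bp had 502 ChIP and 161 input reads, and the WT island of 6600 bp had 349 and 93. At chr16:23430601-23439600 there were 471 ChIP reads over 9000 bp in MT and 332 over 6800 bp in WT, and at chr16:33222801-33231600 there were 457 over 8800 bp and 364 over 7600 bp. The ChIP densities of these 3 regions differed by less than counting error, with ratios of 1.031, 1.024 and 1.036.

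The remaining regions were denser in MT as well as longer. They were chosen for many MT ChIP reads, which favours a high MT density, and their intervals are not corrected for that choice. The region chr6:97276001-97285600 held 478 ChIP and 148 input reads in the 9600 bp MT island and 316 and 111 in the 8600 bp WT island, a density ratio of 1.29 (1.121 to 1.497). At chr2:26861001-26870600, where the boundaries at the lower coordinate were identical, MT had 467 ChIP reads over 9600 bp and WT 184 over 4800 bp, a ratio of 1.21 (1.02 to 1.45). The log2 ratio of input density was 0.13 at the first and -0.09 at the second.

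Of the 5 regions with the highest enrichment in both genotypes, all but chr16:26669001-26673400 had islands shorter than the medians given above. At chr1:180173601-180176000 the fold was 6.39 in MT and 5.58 in WT, with 135 ChIP and 20 input reads in the 2400 bp MT island and 86 and 14 in the 1400 bp WT island. At chr16:26669001-26673400 it was 5.45 in both, with 144 ChIP reads over 4400 bp and 66 over 2400 bp. At chr2:93977601-93979800 it was 5.33 in MT and 7.36 in WT, and at chr1:58367401-58370000 it was 5.02 and 5.12. The widest gap in fold of the 5 was at chr15:81699401-81701600, with 5.80 in MT and 17.27 in WT. That WT value rests on 57 ChIP reads against 3 input reads in 800 bp.

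Over all selected regions, the longer MT islands held more reads at a lower density. The log2 of MT over WT scaled ChIP reads per region had a median of 0.80 and was above 0 in 3630 regions, which follows from the selection on length. At least 1.5 times as many ChIP reads in MT were seen in 69.2% of the selected regions, where all 11900 regions gave 23.9%. Per kb of each genotype's own island, the median log2 ratio was -0.20, with the middle 50% between -0.40 and -0.012, and 856 regions (23.4%) were denser in MT. Over all 11900 regions the median was -0.01 and 48.6% were denser in MT. Pooled over the selected regions, MT had 525515 ChIP reads over 16.2 Mb, which is 31.0 scaled reads per kb. WT had 288825 over 8.23 Mb, which is 35.1 reads per kb, so the MT density was 0.882 times that of WT (0.878 to 0.886). The median log2 density ratio was -0.11 where each island was covered by at least 50%, and -0.50 with the ChIP totals of the lists set equal.

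A ChIP density at least 25% higher in MT was found in 106 of the selected regions (2.90%), beside 13.5% of all regions. A density at least 20% lower in MT was found in 1239 (33.9%), beside 16% of all regions. Length chose the regions and density divides by it, so the shares were not independent of the rule. The regions longer in WT were the mirror image, with a median log2 ratio of 0.24 and 83.1% denser in MT. Under this scaling the longer island of a pair was usually the less dense in either direction.

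Input read density differed in the same direction by less. Its median log2 ratio was -0.06 in the selected regions, with 42.7% above 0, and 0.10 in the regions longer in WT. Input density at least 25% higher in MT was found in 527 selected regions (14.4%), beside 18.7% of all, and at least 20% lower in 821 (22.5%), beside 17.6% of all. The authors' fold had a median log2 ratio of -0.15 and was higher in MT in 1289 selected regions (35.3%). The fold is bound to both read counts and adds no separate measurement.

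**Figure D3:**
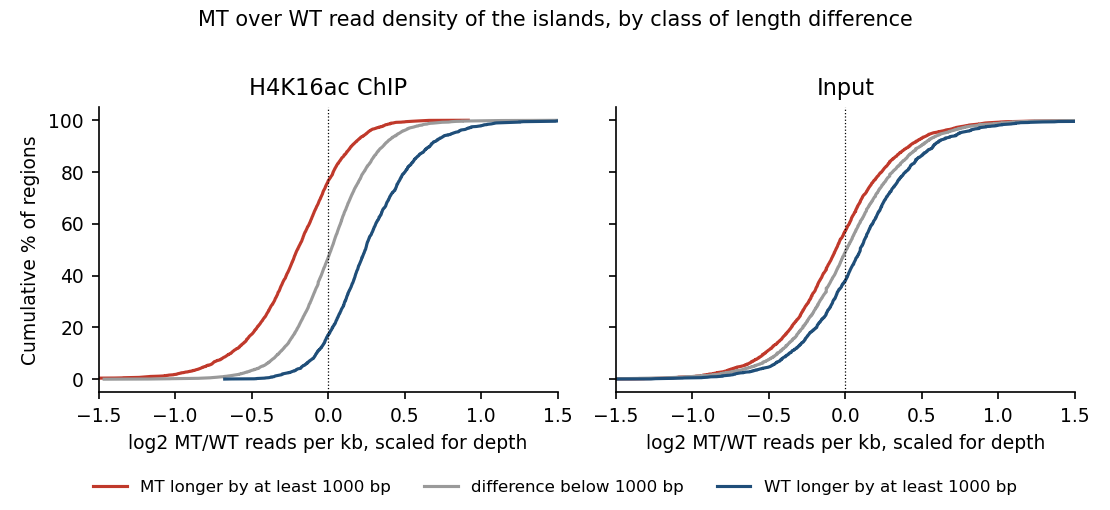
Cumulative percentage of regions (y axis) against the log2 ratio of MT over WT reads per kb, scaled for depth (x axis), for ChIP on the left and input on the right. The ChIP line of regions longer in MT (red) has its median at -0.20 and that of regions longer in WT (blue) at 0.24, while the input lines lie closer together with medians of -0.06 and 0.10.

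Restricting to regions with at least 100 ChIP reads in each genotype left 872, whose median log2 ChIP density ratio was -0.12 and of which 28.1% were denser in MT. The 3 highest ratios among them were at chr13:60668601-60674600, chr6:55105801-55113400 and chr10:60483401-60488400. The first had 243 ChIP and 104 input reads in an MT island of 5400 bp and 107 and 60 in a WT island of 3800 bp, a density ratio of 1.53 (1.21 to 1.94). At the second the MT island of 7600 bp had 285 and 128 and the WT island of 4600 bp had 110 and 70, a ratio of 1.499 (1.198 to 1.885). At the third the MT island of 5000 bp had 280 and 82 and the WT island of 3400 bp had 123 and 64, a ratio of 1.48 (1.19 to 1.84). All 3 intervals lie above 1, but they belong to the extremes of 872 regions and are not corrected for that choice. The fold over input was also higher in MT at each, at 2.21 against 1.62, 2.11 against 1.43 and 3.23 against 1.75.

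The 3 lowest ratios were 0.530 in a region on chromosome 18, 0.537 at chr11:82658001-82665600 and 0.542 at chr7:127605001-127609800. On chromosome 18 the MT island was 5800 bp long with 172 ChIP reads and the WT island 2000 bp with 107. On chromosome 11 there were 235 ChIP reads over 7600 bp in MT and 121 over 2200 bp in WT. On chromosome 7 the MT island held fewer ChIP reads than the WT island despite its length, 177 over 4800 bp against 182 over 2800 bp, while its input reads were 100 against 57. A longer MT island did not therefore always hold more ChIP reads after scaling, though 3630 of the 3656 did.

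The reads of the stretch that MT added were estimated by difference. The lists give 1 read number per island and do not divide it along the island, so the WT reads were subtracted from the scaled MT reads and the rest was set against the added length. This assigns the whole difference to the added stretch and assumes an equal level in the part both islands cover. Over the 7.99 Mb added, MT had 26.7 ChIP reads per kb (26.5 to 26.9), which is 76.1% (75.3 to 76.9%) of the 35.1 per kb of the WT islands. The input of the same stretch was 13.3 reads per kb, 91.8% of that in the WT islands. Together they gave a fold over input of 1.83 (1.80 to 1.85) in the added stretch and 2.202 in the WT islands. Under this assumption the added stretches were enriched over input, at a lower level than the islands they adjoin. An island enters a list only where its ChIP reads exceed the same input, so a fold above 1 follows in part from the call. This depends on the scaling of depth. With the ChIP totals of the lists set equal, which takes the longer MT islands for depth, their ChIP density was 42.5% of that of the WT islands and their fold 1.02 (1.003 to 1.037), so that almost none of the enrichment was left. The fold under this scaling was computed after seeing the data.

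The same estimate for the regions longer in WT gave 23.3 ChIP reads per kb in the stretch that WT added, 66.7% of the 34.9 per kb in the MT islands, and a fold of 1.65 (1.61 to 1.69). The stretch added in MT thus had more ChIP reads per kb than the one added in WT under this scaling. The estimate divides by the length difference that chose the regions, so the gap between them was given no test. This gap shrinks with another scaling, chosen after seeing the data. For this, depth was set equal over the 830 islands whose boundaries are identical in the lists. The ChIP densities of the added stretch were then 25.6 reads per kb in MT (25.4 to 25.8) and 24.0 in WT (23.7 to 24.4). The folds were 1.76 (1.73 to 1.78) and 1.698 (1.66 to 1.74), with counting intervals that overlap. The MT ChIP depth factor was 1.047 in the first scaling and 1.066 in the second. With the ChIP totals of the lists set equal, where the factor is 1.288, the order turned: the stretch added in MT had 14.9 ChIP reads per kb and that added in WT 31.3, and the folds were 1.02 and 2.21.

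Pooled over all WT islands of 1000 to 1400 bp, the ChIP density was 34.9 reads per kb. It was 30.8 at 1600 to 2200 bp and 30.4 at 2400 to 3800 bp. These are pooled values like that of the added stretch, but of whole listed islands.

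**Figure D4:**
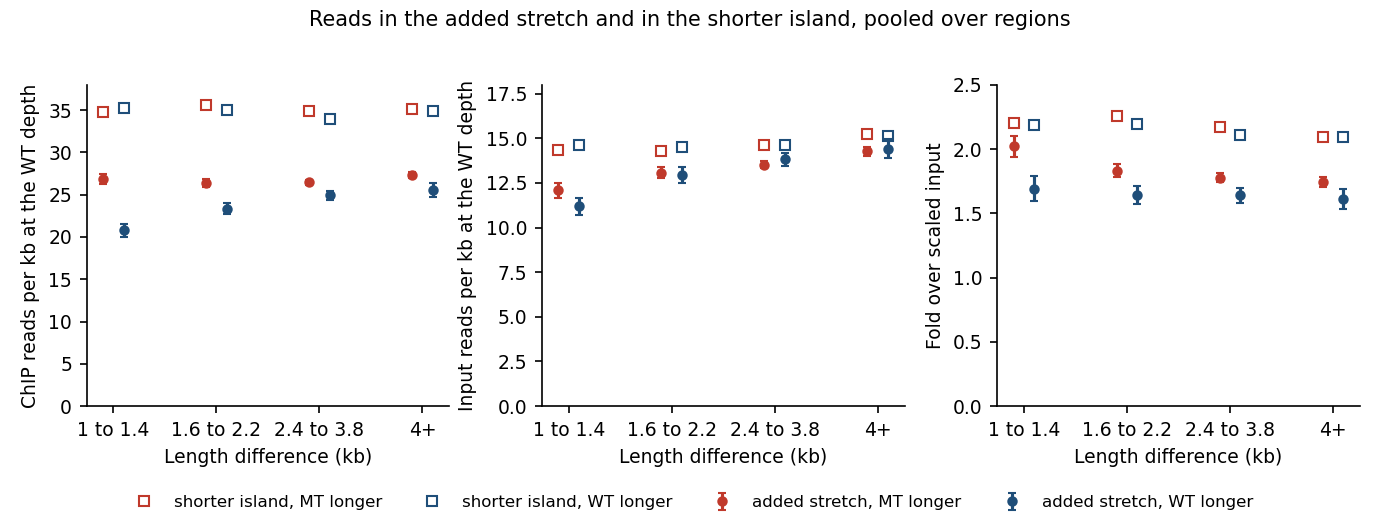
ChIP reads per kb, input reads per kb and fold over input (y axes, from left) by class of length difference in kb (x axes), pooled over regions. Filled circles with 95% counting intervals are the added stretch and open squares the shorter island, and in MT (red) the added stretch has 26.4 to 27.4 ChIP reads per kb in every class, below the shorter islands.

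Under the first scaling, the ChIP density of the stretch added in MT hardly varied with its length. It was 26.9, 26.4, 26.5 and 27.4 reads per kb at differences of 1000 to 1400, 1600 to 2200, 2400 to 3800 and at least 4000 bp. Its input increased over the same classes from 12.1 to 14.3 reads per kb, so the fold went from 2.02 to 1.74. In the regions longer in WT the ChIP density went from 20.8 to 25.6 and the fold from 1.69 to 1.61. The MT and WT values thus lay farthest apart in the class nearest the threshold under this scaling. A change of the depth factor moves the estimate most where the added length is small beside the islands, and in opposite directions for MT and WT. The values by class, by ends and by chromosome were computed under the first scaling only, so the part of depth in this pattern was not tested.

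The added stretch differed more with the length of the WT island it adjoined. Beside WT islands of up to 1000 bp it had 24.3 ChIP reads per kb, and beside those of 4000 bp or more 33.0 (32.0 to 34.1), where the fold was 2.19 and that of the WT islands 2.10. Under the first scaling, these long islands were the only one of the 6 classes of WT length in which the added stretch reached the fold of the island itself. The depth factor weighs most in this class, where the added length is small beside the WT island. Whether the order of the folds holds under another factor was not tested. Because the estimate puts the whole read difference into the added length, a higher density in the shared part would also raise it there, and the lists cannot separate these. The number of regions longer in MT over that longer in WT did not follow the length of the shorter island, lying between 1.87 and 2.10 in 6 classes.

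By the way the ends were extended, the fold of the added stretch was 1.86 with both ends past WT, 1.82 with 1 end past and the other identical, and 1.75 with 1 end past and the other short of WT. In ChIP reads per kb these were 26.7, 26.6 and 27.0. How an island was extended therefore made little difference to the density of what was added.

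The selected regions were a larger share of wide regions than of narrow ones. Of the regions spanning up to 2200 bp, 6.77% were longer in MT and 5.90% in WT, at a ratio of 1.15 whose interval of 0.933 to 1.41 includes 1. Of those spanning 5200 bp or more, 53.1% were longer in MT and 21.6% in WT, at a ratio of 2.46 (2.21 to 2.75). A narrow region leaves less room for a difference of 1000 bp, so the shares of both genotypes depend on span by construction. By the mean of the authors' folds, the share longer in MT went from 35.3% below 1.75 to 23.1% at 4 or more, and that longer in WT from 22.1 to 9.09%. The ratio between them was 1.60 (1.41 to 1.82) in the class of lowest fold and 2.55 (1.68 to 3.93) in that of highest fold, so both shares were lowest at the highest fold and the MT share was the larger in each class.

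**Figure D5:**
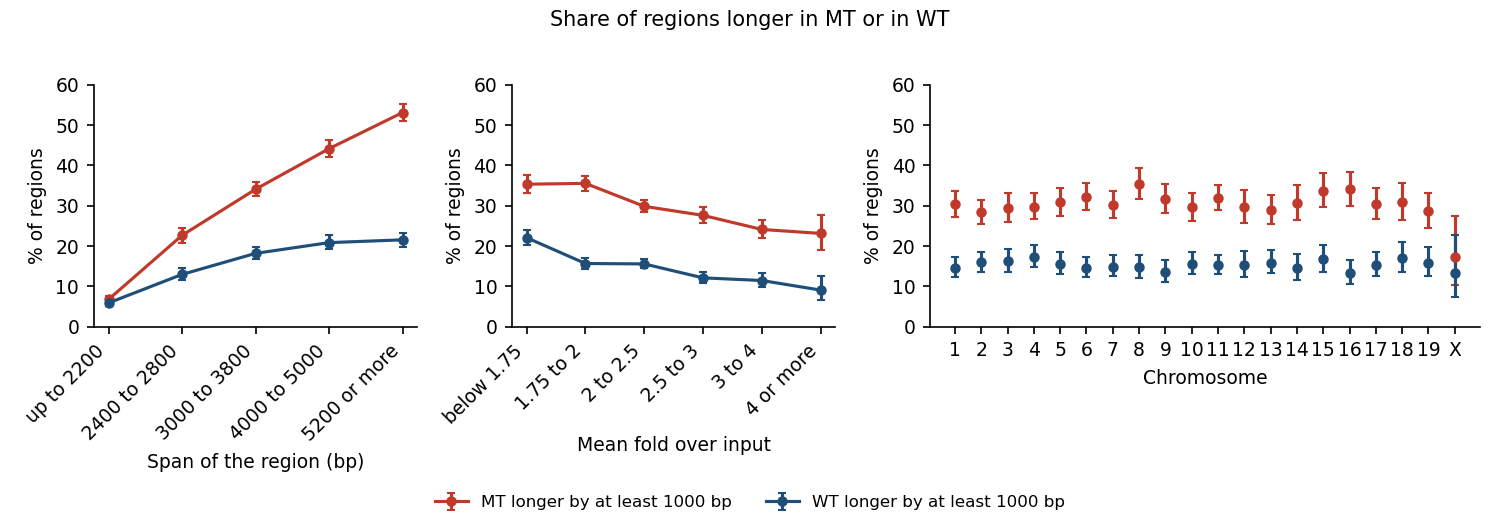
Percentage of regions (y axes) longer in MT (red) or in WT (blue) by at least 1000 bp, by span of the region in bp, by mean fold over input and by chromosome, with 95% Wilson intervals. Red lies above blue on all autosomes, between 28.4 and 35.4%, and the red and blue intervals overlap on X and in the narrowest regions.

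The excess was spread over the genome. On the 19 autosomes, 28.4 to 35.4% of the regions were longer in MT and the ratio of MT to WT lay between 1.72 and 2.58. The share was highest on chromosome 8, with 209 of 590 regions. The added stretch had 25.6 to 28.6 ChIP reads per kb on every autosome. The X chromosome held 75 regions, of which 13 were longer in MT (17.3%, 10.4 to 27.4%) and 10 in WT.

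The selected regions were 30.7% of all. The next of the 11900 regions was also longer in MT after 33.1% of them (31.6 to 34.6%), and after 35.9% (32.9 to 39.0%) where it lay within 10000 bp. The longest run was 9 consecutive regions at chr11:70398801-70519000, over 120.2 kb. Their differences were 1200 to 2600 bp, and together the MT islands covered 42400 bp with 1414 ChIP and 671 input reads, and the WT islands 26000 bp with 965 and 419. Neighbouring regions share their libraries and the local background, so the run is a description of these libraries.

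Other islands of MT were close to the selected regions. Another MT island lay within 2000 bp of the MT island in 38.8% of them (37.2 to 40.3%), and another WT island lay within 2000 bp of the WT island in 29.7% (28.2 to 31.2%). In the regions longer in WT the shares were 31.5 and 31.2%, and in those differing by less than 1000 bp 36.7 and 31.5%. A longer island reaches nearer to its neighbours, which enters these shares.

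The WT islands of the selected regions were also nearer to the threshold of the list. The authors' false discovery rate was above 1e-05 in 28.9% of the WT islands and in 15.5% of the MT islands, with 24.8 and 20.8% over all 11900 regions. In the regions longer in WT these were 21.7% of the WT islands and 30.7% of the MT islands. In either direction the shorter islands were therefore more often the weaker calls. A shorter island holds fewer reads, so this follows in part from the selection on length.

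Values changed smoothly across the threshold of 1000 bp. At a difference of 1000 bp the median islands were 3000 bp in MT and 2000 bp in WT, with 93 and 63 ChIP reads and a median log2 ChIP density ratio of -0.15. At 800 bp they were 2800 and 2000 bp, with 88 and 65 ChIP reads and a ratio of -0.13. The 3 regions just inside with the most MT ChIP reads were chr6:97276001-97285600, given above, a region on chromosome 18 and chr14:68220601-68228400. On chromosome 18 the ChIP reads were 425 over 9800 bp in MT and 338 over 8800 bp in WT, and on chromosome 14 they were 347 over 7800 bp and 221 over 6800 bp. Just outside, chr13:23871001-23878600 held 386 ChIP reads over 7200 bp in MT and 298 over 6400 bp in WT. At chr16:36846401-36856200 there were 361 over 9400 bp and 315 over 8600 bp, and at chr2:30023801-30031400 there were 344 over 7600 bp and 282 over 6800 bp. Their density ratios were 1.1002, 1.002 and 1.043, with intervals that include 1.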

How the data were processed

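H4K16ac ChIP and input DNA from the liver of 1 MT and 1 WT mouse were analysed. Chromatin was crosslinked and sonicated. The authors removed duplicate reads, counted reads in windows of 200 bp, joined windows over gaps of up to 400 bp and kept islands at a false discovery rate of 0.001. The submitters' processing notes name Bowtie 0.12.7, SICER 1.03 and the build mm8. The deposited counts are whole ChIP and input reads per island. The authors deposited a p-value and a false discovery rate for each island, and a ratio (fold) of ChIP to input reads scaled for library size. Library totals are not in the lists, so MT depth was set by equal input density over regions shared by both lists. The library ratio in the fold, 1.06 ChIP over input in MT and 1.10 in WT, then gave the ChIP depth.

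Islands were merged and measured with scipy 1.17.1, pandas 2.3.3 and numpy 2.4.6 in Python 3.11.15. The numbers of merged regions were checked with bedtools 2.31.1, and the scripts were tested on simulated data. No test compared the genotypes, since each condition has 1 library. Intervals are 95%, Wilson for shares, exact binomial for ratios of counts and medians, and counting error for pooled densities. The regions, measures and alternatives were chosen with earlier results of these data known. Regions were named by rule: the 5 with the largest difference, the 5 with the most MT ChIP reads, the 5 with the highest lower fold of both genotypes, the 3 highest and 3 lowest density changes with at least 100 ChIP reads each, and 3 on each side of the threshold. Coordinates are 1-based. Genes and sequences are not reported, since no genome of the build mm8 was used here.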

Additional observations from a re-analysis of the deposited data

How the results depend on the processing

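Under the alternatives 78 values were computed again. Of these, 35 lay inside the reported value's counting interval (for the number of regions, within 1.5 times) and 43 lay outside it. A turn in direction was looked for in the medians only, and 0 were found. The order of the stretches added in MT and in WT, which turned with equal ChIP totals, was not among the 78. The cause of the moves was not tested, except that a stricter list or another limit changes which regions are counted. Leaving out a replicate was not possible with 1 library per condition. No paired analysis was possible because each condition has 1 mouse and the result comes from no test.

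The number of regions longer in MT, 3656 as reported, was 1636 with a fold of at least 2 in both lists, 1754 where the overlap covered 50% or more of each island, 1704 with a difference of at least 2000 bp and 2358 with a span below 5000 bp. The ratio of regions longer in MT to those longer in WT, 1.999 as reported, was 2.14 with the stricter false discovery rate of 1e-05, 1.82 with the 50% overlap, 1.80 with a difference of at least 600 bp, 2.68 at 2000 bp and 1.82 with a span below 5000 bp. It stayed above 1 under each alternative run. The ratio rests on the deposited island boundaries, so the alternatives for depth do not reach it and the part of depth was not tested.

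The median log2 ChIP density ratio, -0.20 as reported, was -0.24 with a fold of at least 2, -0.16 with at least 50 ChIP reads, -0.11 with the 50% overlap, -0.18 at 600 bp, -0.24 at 2000 bp, -0.25 with a span below 5000 bp and -0.18 with at least 10 input reads in each genotype. It was -0.50 with the ChIP totals of the lists set equal, a scaling that takes the greater island length of MT for depth, and -0.23 with depth set on islands with the same start and end, a choice made after seeing the data. The median log2 input density ratio, -0.062 as reported, was -0.038 at the stricter false discovery rate, -0.10 with a fold of at least 2, -0.048 with the 50% overlap and -0.095 with a span below 5000 bp. The median log2 ratio of the authors' fold, -0.15 as reported, was -0.18 at the stricter false discovery rate, -0.11 with a fold of at least 2, -0.10 with at least 50 ChIP reads, -0.058 with the 50% overlap, -0.12 at 600 bp, -0.18 at 2000 bp, -0.17 with a span below 5000 bp and -0.13 with at least 10 input reads.

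The ChIP density of the added stretch, 76.1% of that of the WT islands as reported, was 74.8% at the stricter false discovery rate, 72.3% with a fold of at least 2, 78.9% with at least 50 ChIP reads, 81.5% with the 50% overlap, 77.4% with no limit on span and 70.0% with a span below 5000 bp. It was 42.5% with equal ChIP totals, which also put the density of the stretch added in MT (14.9 reads per kb) below that added in WT (31.3), and 72.9% with depth set on islands with the same start and end. The share of regions extended at 1 end, 51.2% as reported, was 48.9% with a fold of at least 2, 53.9% with the 50% overlap, 57.4% at 600 bp, 40.3% at 2000 bp and 52.9% with a span below 5000 bp.

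Reads outside islands are not in the lists, so the level of WT in the stretch that MT added was not measured. Depth limits single regions: the median selected region had 64 ChIP and 26 input reads in WT.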
